A study of Mus musculus with 16 samples.

Results

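The genes described here are 10 mouse genes of the Sprouty, Spred, dual specificity phosphatase and ETS variant families whose transcription follows the activity of the kinase ERK: Spry1, Spry2, Spry4, Spred1, Spred2, Dusp4, Dusp5, Dusp6, Etv4 and Etv5. They were listed by name under a rule that uses no measured value, although earlier results of these data were known when the list was made. Each matched 1 row of a deposited table of 43629 genes. Their RNA was sequenced in endothelial cells that magnetic beads against CD31, an endothelial surface protein, had captured from hearts of C57BL/6J mice aged 8 to 10 weeks, at day 6 after tamoxifen, injected into the peritoneum to set off the deletion. The 16 libraries fall into 4 groups of 4. One group carried Cre alone (control), another lacked Klf2 in endothelial cells (K2KO, with the genotype label spelled KFL2), another lacked Klf4 there (K4KO), and the last was labelled as lacking both genes (DKO). Each library pooled cells of 2 mice. The factors Klf2 and Klf4, of the Krüppel-like family, are induced in endothelium by laminar flow. Neither the promoter that drove Cre nor the exons removed were given in the sources used here, and the labels name no purification beyond the beads.

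In endothelial cells, receptors for growth factors such as VEGF and FGF activate RAS, which starts the chain of kinases RAF, MEK and ERK that drives proliferation, sprouting and migration. ERK then induces its own brakes. Sprouty and Spred proteins act between the receptor and RAF, dual specificity phosphatases remove the activating phosphates from ERK itself, and the ETS factors Etv4 and Etv5 are transcription factors that are induced together with these brakes downstream of FGF receptors. RNA of these genes is for that reason often read as a trace of past ERK activity. Here RNA alone was measured, and neither ERK phosphorylation nor protein was.

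The genes did not move as one group. In the DKO-labelled libraries Etv4, Spry2, Spry4 and Dusp5 were higher than in control and Spred2 and Etv5 were lower, while Spry1, Spred1, Dusp4 and Dusp6 did not pass the test. The related factors Etv4 and Etv5 changed in opposite directions, Etv4 by 2.87 ± 0.26 and Etv5 by -0.66 ± 0.12 on the log2 scale (estimate ± SE, 4 libraries a group). None of the 10 genes was called in either single knockout, where 0.168% of all genes tested were called in K2KO and 0.063% in K4KO. A count of 0 is near those shares. In DKO against control 38.3% of all genes tested were called.

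Values are scaled counts, that is, reads per gene that the authors had divided by 1 factor per library. A change is a difference of group means of log2(scaled count + 1), given ± SE. A gene was called when its p from limma, fitted to 23816 genes in all 16 libraries at once and adjusted by the Benjamini-Hochberg method over all of those genes, was below 0.05. All 10 genes passed the filter on low values. The libraries held 21.1 to 106 M reads (megareads), of which DKO library 4 had the most and the other 15 had at most 51.0 M. In K2KO library 2 and K4KO library 1, 29670 and 29602 genes had a read, against 20582 to 24156 in the other 14 libraries. Numbers after K2KO and DKO are those of the table's columns, which run from 2 to 5.

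The targeted genes were read first. Klf2 was 5538, 6597, 10705 and 6066 scaled counts in control libraries 1 to 4 and 3079.8, 3389, 3378 and 3571 in K2KO libraries 2 to 5, a change of -1.06 ± 0.16 (limma adjusted p = 0.00682; two-sided exact permutation p = 0.0286, the smallest that 4 against 4 libraries allow). Klf4 was 7987, 8959.5, 13342 and 8476 in control and 5088, 5756, 6779.9 and 5654 in K4KO, a change of -0.71 ± 0.15 (limma adjusted p = 0.118, and 0.0284 with the replicate number as a block; exact permutation p = 0.0286). In the DKO-labelled libraries neither gene was lower. Klf2 there was 7318, 9379.9, 10990.0 and 8576, a change of 0.36 ± 0.16 (limma adjusted p = 0.0881), and Klf4 was 7994, 10119.6, 11829 and 7845, a change of -0.03 ± 0.15 (limma adjusted p = 0.923). Reads from exons outside the deleted part would still be counted, in the single knockouts as in DKO. Klf2 averaged 3354 scaled counts in K2KO and 9066 in the DKO-labelled libraries. The part of such reads in these levels was not tested. The RNA levels of both genes thus did not show the loss that the DKO label names. Because the exons removed were not given, these levels cannot settle whether the label holds. Each DKO result below is that of libraries so labelled.

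The starts of 4 of the genes that moved are shown, since they set Dusp5, which varied most between the control libraries on the log2 scale, beside Spry2, which rose, and Spred2 and Etv5, which fell, in the DKO-labelled libraries. Each is the RefSeq window on GRCm38.p6 from 250 bases before to 50 bases after a transcript start, 5′ to 3′ on the gene's strand. Capitals mark matches to 1 of 5 motifs searched on both strands: the ETS motif CCGGAAG, the AP-1 motif TGANTCA, the cyclic AMP element TGACGTCA, the Krüppel-like factor motif CCACNCCC and the serum response element core, the last added after the sequences had been read. The Dusp5 window is chr19:53528895-53529194 on the plus strand, that of Spry2 is chr14:105896770-105897069 on the minus strand, that of Spred2 is chr11:19924192-19924491 on the plus strand and that of the upstream Etv5 start is chr16:22439521-22439820 on the minus strand.
Dusp5: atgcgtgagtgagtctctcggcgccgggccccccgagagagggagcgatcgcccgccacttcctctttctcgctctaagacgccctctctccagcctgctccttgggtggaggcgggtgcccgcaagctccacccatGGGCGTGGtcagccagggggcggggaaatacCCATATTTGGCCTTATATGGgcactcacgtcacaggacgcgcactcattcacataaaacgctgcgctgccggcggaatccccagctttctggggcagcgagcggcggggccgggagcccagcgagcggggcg
Spry2: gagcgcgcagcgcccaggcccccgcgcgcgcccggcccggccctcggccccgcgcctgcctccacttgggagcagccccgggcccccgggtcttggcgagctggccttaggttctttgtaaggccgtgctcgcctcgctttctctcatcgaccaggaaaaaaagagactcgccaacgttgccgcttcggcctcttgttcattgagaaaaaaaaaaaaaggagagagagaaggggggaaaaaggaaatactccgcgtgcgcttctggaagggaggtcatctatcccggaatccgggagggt
Spred2: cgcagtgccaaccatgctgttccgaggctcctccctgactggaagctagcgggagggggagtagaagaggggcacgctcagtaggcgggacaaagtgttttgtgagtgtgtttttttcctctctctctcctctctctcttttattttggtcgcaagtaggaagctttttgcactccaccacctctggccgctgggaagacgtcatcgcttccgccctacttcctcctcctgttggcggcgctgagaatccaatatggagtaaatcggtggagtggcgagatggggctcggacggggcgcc
Etv5: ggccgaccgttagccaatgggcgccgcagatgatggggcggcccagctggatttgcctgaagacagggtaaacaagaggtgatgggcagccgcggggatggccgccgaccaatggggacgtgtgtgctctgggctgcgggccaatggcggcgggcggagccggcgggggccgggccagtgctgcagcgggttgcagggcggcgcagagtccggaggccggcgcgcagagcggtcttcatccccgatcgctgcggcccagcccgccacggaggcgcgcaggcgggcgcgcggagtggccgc

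Windows were searched for 7 of the 10 genes: these 4, Spry1, Spred1 and Dusp6. Those of Spry4, Dusp4 and Etv4 were not used, so nothing is said of their motifs. Etv5 had 2 windows, neither with a match. Of the 7 genes searched, Dusp5 alone held a match. It has 1 Krüppel-like factor motif, read on the opposite strand and beginning at position -113 from the start, and 2 serum response element cores directly after one another. The Krüppel-like factor motif was present in 17.6% of 32851 mouse promoter windows of the same length, and the serum response element core in 1.63%. The ETS motif was present in 8.86%, the AP-1 motif in 7.81% and the cyclic AMP element in 1.79%, and in 0 of these 7 genes. No match says only that these letters are not in the window.

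In the control libraries the 10 genes spanned a wide range of levels. These libraries also held RNA of other heart cells. Summed scaled counts there were 231254 to 553770 for 12 cardiomyocyte markers and 271031 to 339726 for 12 endothelial markers. Which cells the reads of the 10 genes came from was not measured. Per kilobase of exon, mean control levels were 1755 scaled counts for Dusp6, 1217 for Spry1, 756 for Spred1, 571 for Spry4, 372 for Spred2, 280 for Spry2, 272 for Dusp5, 93.8 for Etv5, 76.6 for Dusp4 and 8.05 for Etv4. The control libraries of neighbours in this order overlapped for Spred1 and Spry4, for Spry2 and Dusp5 (and for Dusp5 and Spred2), and for Etv5 and Dusp4. Dusp6, Spry1 and Etv4 did not overlap with a neighbour. Among these 10 genes, the phosphatase Dusp6, specific for ERK in the cytoplasm, was thus the most abundant. The transcription factor Etv4 was the scarcest of the 10, with 16 to 25 reads in each control library. Some reads are shared or uncertain: Spry1 overlaps 710 exon bases of the opposite-strand model Gm42922, and Dusp5 overlaps 547 of AC137853.2, in the GENCODE M21 annotation, and any use of the strand in counting was not given in the sources used here.

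**Figure D1:**
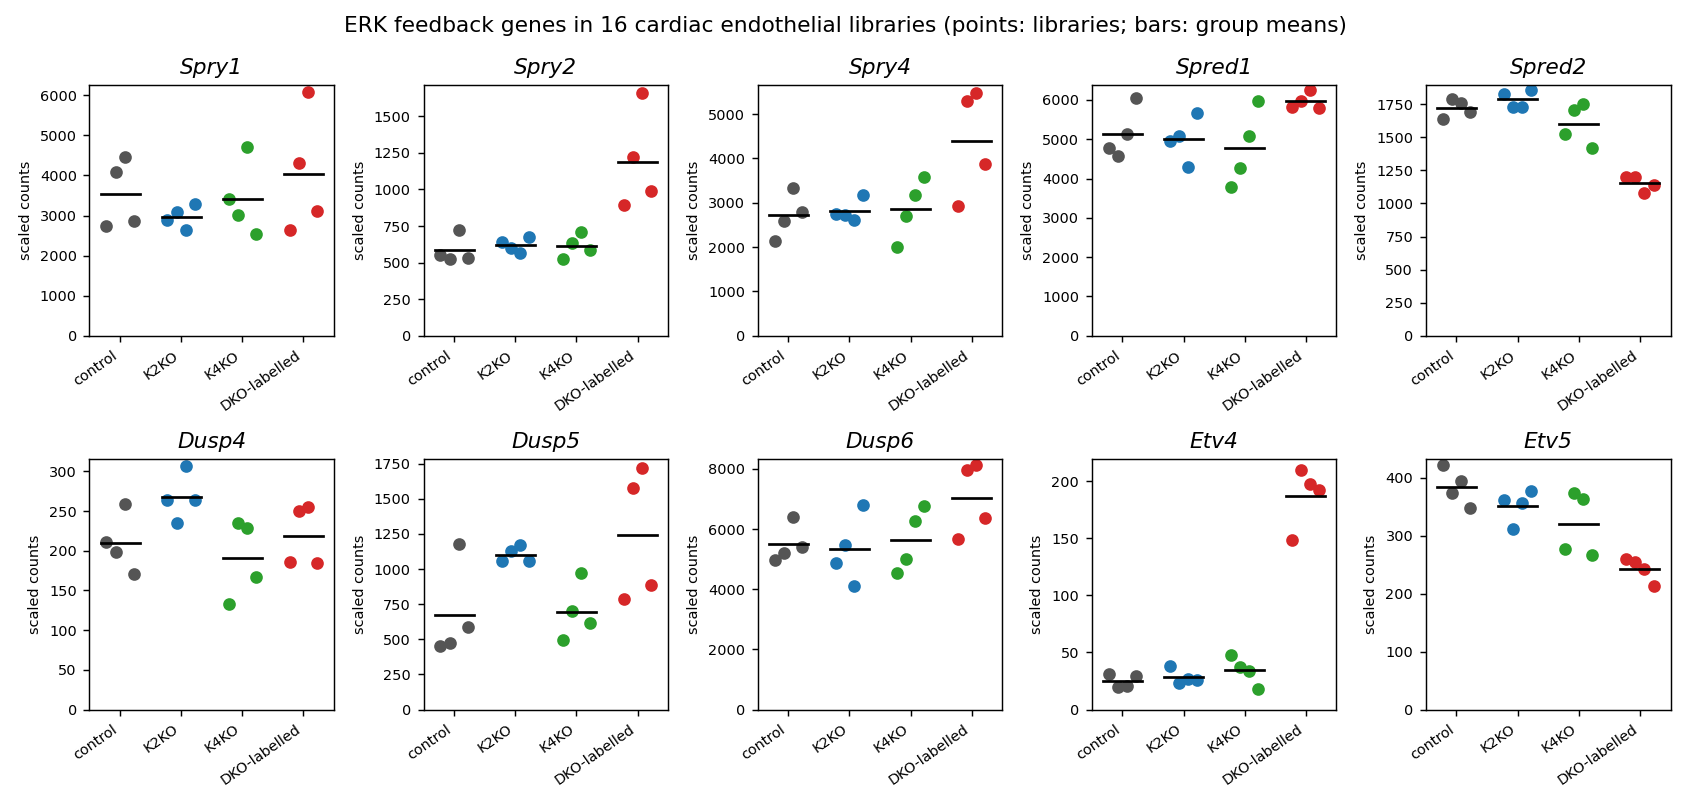
Scaled counts of the 10 genes in each of the 16 libraries (points), by group, with group means as bars. Etv4 in the 4 DKO-labelled libraries lies between 149 and 209.9, above all other libraries, while Spred2 and Etv5 lie below all control libraries there.

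The first comparison asked how these genes differed between the DKO-labelled libraries and Cre control. Of the 10, 6 were called, 4 higher and 2 lower, where 38.3% of all genes tested were called, 19% higher and 19.3% lower. The median change of the 10 was 0.29, and that of all genes tested was -0.03. The same number were called by edgeR (6) and by DESeq2 (6) on the recovered reads. Of the 10, 5 had an adjusted p below 0.05 for this comparison in the authors' deposited table, 5 for DKO against K2KO and 3 for DKO against K4KO. The share of all genes below 0.05 by the authors' test was not counted, so these 3 counts have no background to be read against.

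Sprouty proteins bind signalling adaptors near the receptor and hold back activation of RAS and RAF. Spry2 was 555, 526, 722 and 531 scaled counts in control libraries 1 to 4 and 891, 1224, 1657 and 989.9 in DKO-labelled libraries 2 to 5. All 4 DKO-labelled libraries lay above all 4 control libraries, and the change was 0.998 ± 0.15 (95% interval 0.67 to 1.32, limma adjusted p = 3.45e-05). Spry4 was 2133, 2593, 3341 and 2789 in control and 2918, 5301, 5485 and 3873 in DKO. Library 2 of the DKO-labelled group stayed within the control range and the other 3 lay above it, and the change was 0.67 ± 0.19 (limma adjusted p = 0.00814). Spry1, the most abundant Sprouty gene, was 2731, 4076, 4461 and 2874 in control and 2645, 4302, 6081 and 3111 in DKO. DKO library 2 lay below all controls, DKO library 4 above them and the other 2 between, and the change of 0.15 ± 0.22 did not pass (95% interval -0.32 to 0.61, limma adjusted p = 0.671). That interval leaves room for changes of either sign.

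Spred proteins are relatives of Sprouty that carry the RAS GTPase activating protein neurofibromin, the product of Nf1, to the membrane. Spred2 was 1635, 1790.2, 1758 and 1690.5 in control and 1199, 1202, 1077 and 1139.7 in DKO. Each DKO-labelled library lay below every control library, with an SD of 69.5 in control and 59.2 in DKO around means of 1718 and 1154. The change was -0.57 ± 0.08 (limma adjusted p = 5.29e-06), the tightest SE among the 10 genes. Spred1 was 4773, 4566, 5136 and 6050.0 in control and 5818, 5978, 6258 and 5789 in DKO. The highest control library lay inside the DKO range, and the change of 0.22 ± 0.12 did not pass (95% interval -0.03 to 0.48, limma adjusted p = 0.165).

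Dual specificity phosphatases remove phosphate from both the tyrosine and the threonine of the activation loop of MAP kinases. Dusp5, which acts on ERK in the nucleus, was 451, 475, 1175 and 585 in control and 785, 1573, 1722 and 884 in DKO. Control library 3 lay above 2 of the DKO-labelled libraries, and only libraries 3 and 4 lay above all controls. The change was 0.92 ± 0.28 (95% interval 0.34 to 1.5, limma adjusted p = 0.0126). This call depended on single libraries: the adjusted p was 0.0517 without control library 1, 0.0509 without DKO library 3 and 0.0530 without DKO library 4, and 0.0704 when only the groups compared were fitted. Over the 28 alternatives that kept the threshold at a change of 0, the change ranged from 0.73 to 1.22.

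Dusp6 was 4972, 5201, 6408 and 5406 in control and 5668, 7977, 8139 and 6372 in DKO, a change of 0.35 ± 0.15 that did not pass (95% interval 0.02 to 0.67, limma adjusted p = 0.0858). It was called in 3 of 28 alternatives. Dusp4, a nuclear phosphatase for ERK and other MAP kinases, was 211, 199, 259 and 171 in control and 186, 249, 255 and 185 in DKO. These ranges coincide, and the change was 0.06 ± 0.18 (95% interval -0.31 to 0.43, limma adjusted p = 0.843). The phosphatases thus held 1 called gene of 3.

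Etv4 and Etv5 are closely related ETS transcription factors of the PEA3 group. Etv4 was 30.9, 19.4, 20.5 and 29.1 in control and 149, 209.9, 197 and 192 in DKO. The lowest DKO-labelled library lay above the highest control library, and the change of 2.87 ± 0.26 corresponded to 7.32-fold on the scale of log2(scaled count + 1) (95% interval 2.32 to 3.43, limma adjusted p = 9.05e-08). At these low control levels that scale understates the change, and 134 to 647 reads stood behind the DKO values. Etv5 went the other way. It was 423, 375, 395 and 348 in control and 261, 254, 243 and 213 in DKO, below every control library in 4 of 4, and the change was -0.66 ± 0.12 (limma adjusted p = 1.76e-04).

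**Figure D2:**
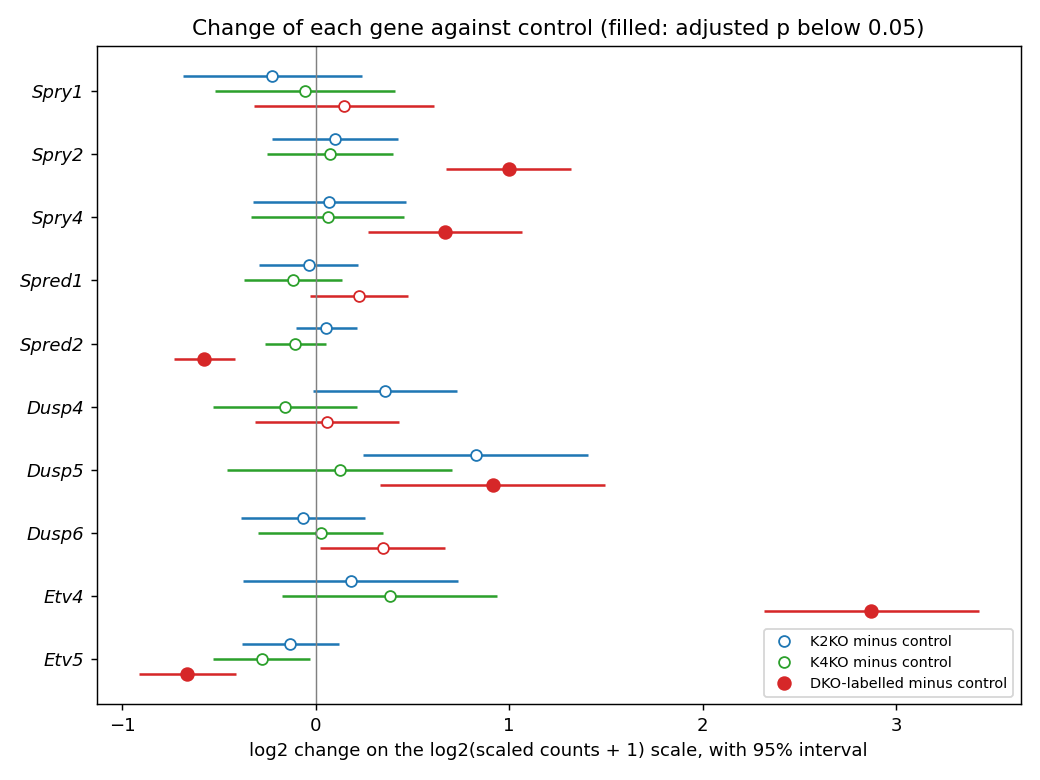
Change of each of the 10 genes against control (difference of mean log2(scaled count + 1), points, with 95% intervals as lines) in K2KO, K4KO and the DKO-labelled libraries. Etv4 reaches 2.87 in DKO, whereas Spred2 at -0.57 and Etv5 at -0.66 lie below 0.

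Spry2, Spry4, Spred2, Etv4 and Etv5 were called with the same sign in all 28 alternatives that kept the threshold at a change of 0, and Dusp5 in 24. With a change of at least 2-fold required, Etv4 alone was called, and Spry2 fell just short of that threshold. The share of all genes called at 2-fold was not counted. Library 4 of the DKO group, the deepest, did not decide the calls of Spry2, Spry4, Spred2, Etv4 and Etv5 against control. Without it these 5 of the 10 genes were called, and the call of Dusp5 was lost.

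Other cell types also differed between these groups. Summed scaled counts of 12 cardiomyocyte markers were 231254 to 553770 in control and 51893 to 88467 in DKO, and all 12 were lower. Summed erythroid and platelet markers were 18483 to 24434 against 4351 to 7382 (6 of 8 lower), mural cell markers 113109 to 122568 against 72653 to 88887 (2 of 8 lower) and lymphocyte markers 1021 to 1398 against 386 to 433 (4 of 8 lower). Endothelial markers were 271031 to 339726 against 317305 to 367430, with 5 higher and 4 lower of 12. Fibroblast markers were 13449 to 17144 against 15821 to 24255 (4 higher and 2 lower of 8), macrophage markers 3426 to 5997 against 2885 to 5198 (3 of 8 lower) and lymphatic endothelial markers 5715 to 7836 against 3275 to 5839 (3 of 5 tested lower, 1 further marker at 0 in every group). Mitochondrial ribosomal RNA took 18.6 to 22.7% of reads in control and 16.8 to 18.2% in DKO, without overlap. The part of these differences in the results was not tested. In bulk samples fewer cells of a type and less RNA per cell cannot be told apart.

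The single knockouts asked how each factor alone bears on these genes. In K2KO 0 of the 10 were called by limma, where 0.168% of all genes tested were called, and 1 had an unadjusted p below 0.05. edgeR and DESeq2 called 0 as well. Among all 23816 genes tested in K2KO, an unadjusted limma p of 0.0470 stood at rank 1476. In K4KO limma called 0, where 0.063% of all genes tested were called, with 1 at an unadjusted p below 0.05 and 0 by edgeR and DESeq2. The share of all genes below that unadjusted p in K4KO was not counted. Both comparisons share the control libraries with each other and with the DKO comparison.

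Dusp5 had the largest change in K2KO. It was 1056, 1131, 1168 and 1055 in K2KO libraries 2 to 5, a spread of 56.1 (SD) around 1103, against 672 ± 341 in control. The change was 0.83 ± 0.28 (95% interval 0.25 to 1.41) and did not pass (limma adjusted p = 0.459). All K2KO libraries lay above 3 of the control libraries and below control library 3, which stood at 1175. Without control library 3 the change was 1.14 and was called (limma adjusted p = 0.0341), so this 1 library decided the call. The DKO minus K2KO difference of Dusp5 was 0.09 ± 0.28 (95% interval -0.49 to 0.67). In K4KO, Dusp5 was 497, 702, 974 and 613, a change of 0.12 ± 0.28 (limma adjusted p = 0.942).

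Dusp4 was 264, 236, 307 and 264 in K2KO, a change of 0.36 ± 0.18 (limma adjusted p = 0.797), and 133, 235, 229 and 167 in K4KO. Etv5 in K4KO was 277, 373, 363 and 267, with 2 libraries below the control range, and the change of -0.28 ± 0.12 did not pass (95% interval -0.53 to -0.03, limma adjusted p = 0.650). In K2KO Etv5 was 362, 311, 356 and 377. Etv4 stayed low in both, at 38.5, 23.0, 26.4 and 25.9 in K2KO and 48.1, 37.6, 33.3 and 17.7 in K4KO. Every one of these 8 values lay below the lowest DKO value of 149.

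The other genes moved little in the single knockouts. Spry2 was 568 to 678 in K2KO and 526 to 708 in K4KO, overlapping the control range of 526 to 722. Spred2 was 1728 to 1857 in K2KO and 1422 to 1753 in K4KO. The 95% interval of its change was -0.10 to 0.21 in K2KO and -0.26 to 0.05 in K4KO. Spry1 ranged from 2643 to 3277 and from 2543 to 4720.0, Spry4 from 2621 to 3185 and from 1993 to 3591, Spred1 from 4288 to 5668 and from 3785 to 5984, and Dusp6 from 4123 to 6809.9 and from 4550.1 to 6778, in K2KO and K4KO in that order. Between the single knockouts limma called 0 of the 10, where 0.445% of all genes tested were called, with 3 at an unadjusted p below 0.05 and 0 by edgeR and DESeq2. Among all 23816 genes tested, an unadjusted limma p of 0.0458 (that of Spred2) stood at rank 1549 in that comparison.

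The DKO-labelled libraries were also compared with each single knockout. Against K2KO 6 of the 10 were called, 4 higher (Etv4, Spry2, Spry4 and Dusp6) and 2 lower (Spred2 and Etv5), where 36.6% of all genes tested were called, 17.7% higher and 18.9% lower. Etv4 changed by 2.69 ± 0.26 (limma adjusted p = 2.34e-07) and Spry2 by 0.90 ± 0.15 (limma adjusted p = 1.19e-04). Spred2 changed by -0.63 ± 0.08 and Etv5 by -0.53 ± 0.12 (limma adjusted p = 2.16e-06 and 0.00149). Spry4 changed by 0.60 ± 0.19 (limma adjusted p = 0.0177) and Dusp6 by 0.41 ± 0.15 (limma adjusted p = 0.0426). The call of Dusp6 held in 17 of 28 alternatives, with a change of 0.23 and an adjusted p of 0.216 under quantile normalisation. It was lost by edgeR (adjusted p = 0.0511) and without any 1 of DKO libraries 3 and 4 and K2KO libraries 2, 3 and 4 (limma adjusted p = 0.129, 0.129, 0.103, 0.0605 and 0.162). The call of Spry4 held in 24, and was lost without DKO library 3 (limma adjusted p = 0.0710) or DKO library 4 (0.0697). With each library scaled to the same median over all genes tested, an alternative added after the data had been seen, Etv5 changed by -0.26 and was not called (limma adjusted p = 0.142).

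Against K4KO 7 were called, 5 higher (Etv4, Spry2, Spry4, Dusp5 and Spred1) and 2 lower (Spred2 and Etv5), where 39.6% of all genes tested were called, 19.1% higher and 20.4% lower. Etv4 changed by 2.49 ± 0.26, Spry2 by 0.92 ± 0.15, Spry4 by 0.60 ± 0.19, Dusp5 by 0.79 ± 0.28 and Spred1 by 0.34 ± 0.12, with a limma adjusted p of 0.0321 for Spred1. Spred2 changed by -0.47 ± 0.08 and Etv5 by -0.38 ± 0.12. Without DKO library 3, DKO library 4 or K4KO library 1 the count was 4, and each time Etv4 and Spry2 were higher and Spred2 and Etv5 lower. Etv5 in turn was not called without DKO library 5, K4KO library 2 or K4KO library 3 (limma adjusted p = 0.0569, 0.0611 and 0.0559). Spred1 was called in 16 of 28 alternatives, Dusp5 in 19 and Spry4 in 23. With the same median over all genes tested, Etv5 changed by -0.07 (limma adjusted p = 0.694) and Spred2 by -0.16 (limma adjusted p = 0.210), and neither was called. The DKO libraries are shared by these comparisons.

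The factorial design allows a test of whether the DKO difference exceeded the sum of the 2 single differences on the log2 scale, as (DKO minus K2KO) minus (K4KO minus control). By that interaction 3 of the 10 genes were called, where 26.7% of all genes tested were called. Etv4 had an interaction of 2.31 ± 0.37 (limma adjusted p = 1.57e-04), Spry2 of 0.82 ± 0.22 (limma adjusted p = 0.00866) and Spred2 of -0.53 ± 0.11 (limma adjusted p = 0.00115). With the same median over all genes tested, Spred2 had -0.20 and was not called (limma adjusted p = 0.283), while Spry4, Spred1 and Dusp6 were called (limma adjusted p = 0.0230, 0.00781 and 0.0319). Without that scaling Spry4 had 0.53 ± 0.27 and Etv5 -0.25 ± 0.17, neither of which passed (limma adjusted p = 0.156 and 0.299). For Dusp5 it was -0.04 ± 0.39, with a 95% interval from -0.86 to 0.79. Klf2 itself had an interaction of 1.03 ± 0.23 (limma adjusted p = 0.00237) and Klf4 of 0.36 ± 0.21 (limma adjusted p = 0.225). Because Klf2 and Klf4 RNA were not lower in the DKO-labelled libraries, these values compare libraries by label.

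Within families the balance of members differed between groups. These ratios were chosen after the values had been seen and are a description with no test. Per kilobase of exon, the ratio of Etv4 to Etv5 was 0.0861 ± 0.0210 in control, 0.107 ± 0.0228 in K2KO, 0.143 ± 0.0609 in K4KO and 1.03 ± 0.189 in DKO (SD, n = 4 libraries), so that the scarcer factor reached the level of the other. Mean levels per kilobase in DKO were 60.2 scaled counts for Etv4 and 59.2 for Etv5. The ratio of Spred2 to Spred1 was 0.410 to 0.576 in control and 0.253 to 0.303 in DKO, without overlap. The ratio of Spry2 to Spry1 was 0.180 to 0.283 in control and 0.380 to 0.469 in DKO, also without overlap. The ratio of Dusp5 to Dusp6 averaged 0.15 in control, 0.273 in K2KO, 0.157 in K4KO and 0.217 in DKO, and the control library with the highest value, 0.232, lay inside the ranges of K2KO and DKO.

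**Figure D3:**
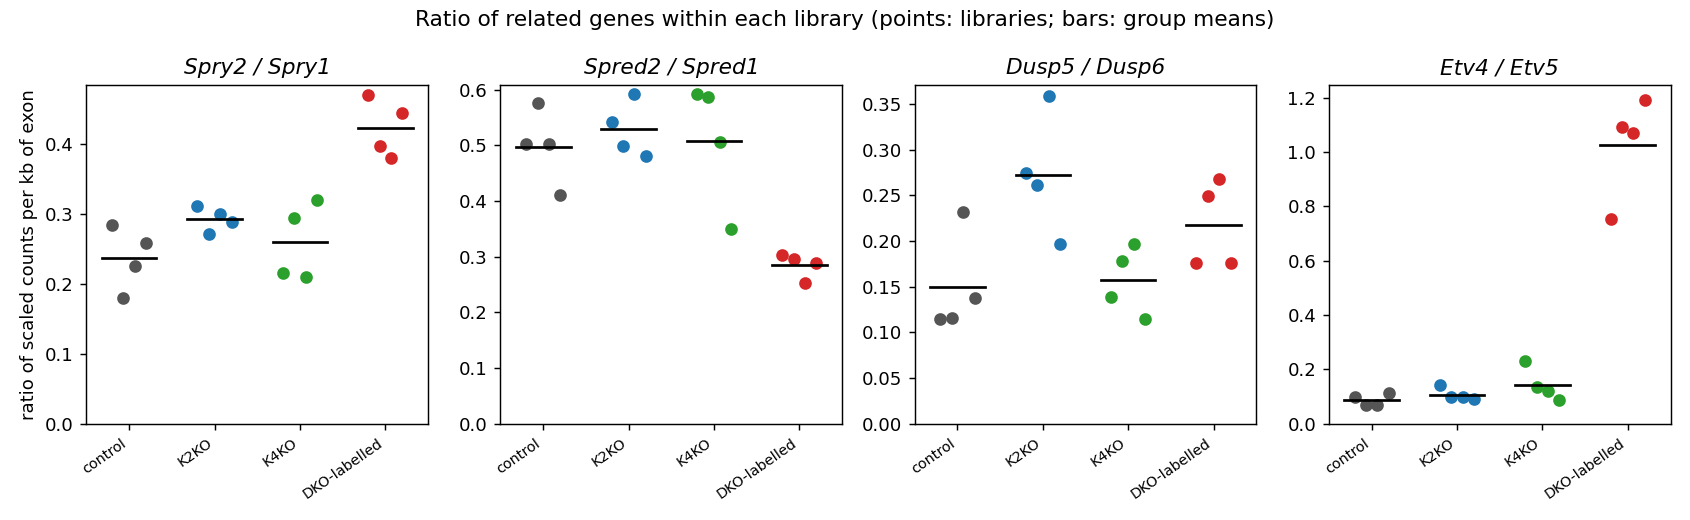
Ratio of levels per kilobase of exon for 4 family pairs in each of the 16 libraries (points), with group means as bars. The ratio of Etv4 to Etv5 averages 0.0861 in control and 1.03 in the DKO-labelled libraries.

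Several of the genes also varied together between libraries of the same group. Control library 3 was the highest of its group for 6 of the 10 genes and above the group mean for 9, with Dusp5 at 0.92 above its group mean on the log2 scale. K4KO library 3 was above its group mean for 10 of 10, DKO library 3 for 10 and DKO library 4 for 9, while DKO library 2 was the lowest of its group for 6. Klf2 and Klf4 deviated in the same libraries. In control library 3, Klf2 lay 0.62 and Klf4 0.49 above the group mean.

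Over the deviations of 16 libraries from their group means, the Pearson r of Dusp5 was 0.91 with Klf2, 0.93 with Klf4, 0.90 with the immediate early gene Egr1 and 0.85 with Fos. Spry4 and Dusp6 had an r of 0.86, Spry2 and Dusp5 of 0.85, Spry1 and Spry2 of 0.82, and Spred2 and Etv5 of 0.69. Not every gene shared this pattern. Etv4 had an r of -0.05 with Dusp5 and -0.37 with Dusp6. For Spred2 these values were 0.21 and -0.0047, for Etv5 0.29 and 0.0042, and for Spred1 0.26 and 0.75. Etv4 had the fewest reads of the 10. Over the 45 pairs of the 10 genes the median r was 0.287, and 18 pairs were above 0.5. These values describe libraries that share their depth and scaling factor for every gene.

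**Figure D4:**
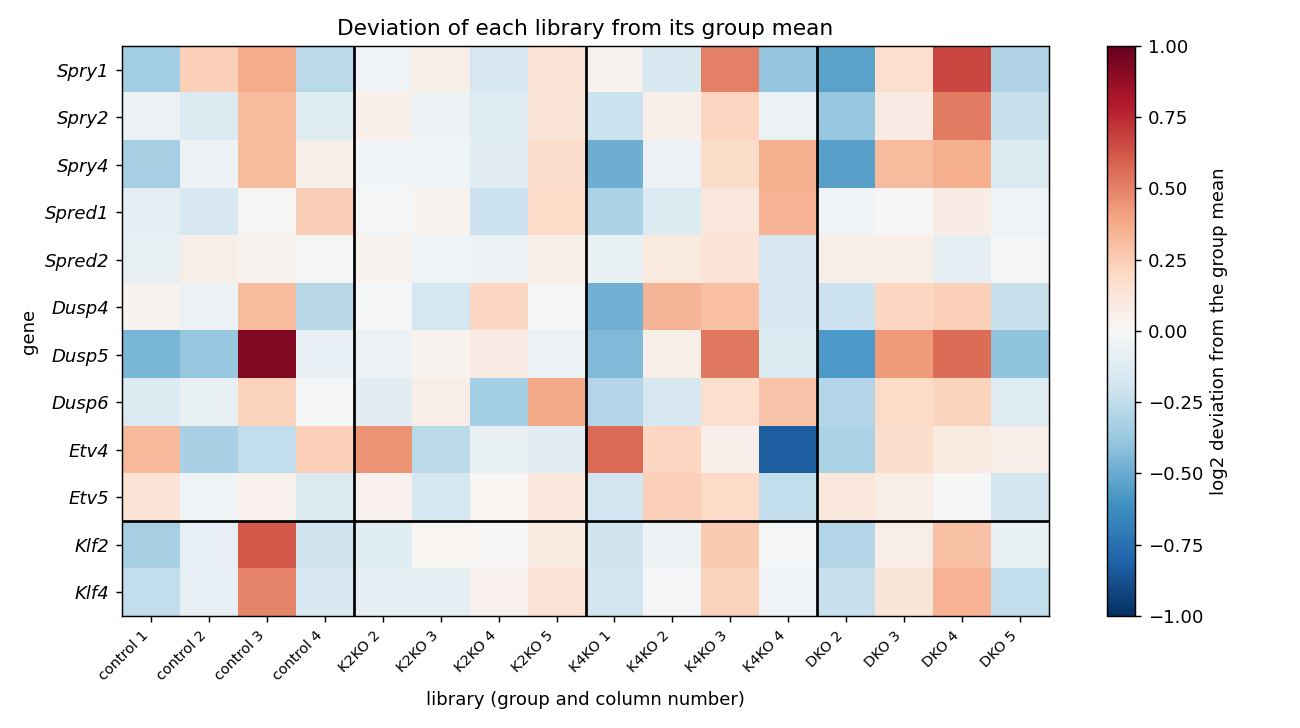
Deviation of each of the 10 genes, Klf2 and Klf4 from the mean of its group in each library (colour, difference of log2(scaled count + 1)). Control library 3 stands 0.92 above its group mean for Dusp5 and 0.62 for Klf2.

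The genes most like each of the 10 over all 16 libraries were taken from 10853 genes with a mean of at least 100 scaled counts, by Pearson r of log2(scaled count + 1). This likeness includes the difference between groups. For Etv4 they were Scamp5, Lgals1 and Ckap4, at an r of 0.98 for each. For Spry2 they were Akap12 (0.98), Bcl10 (0.97) and Cfap45 (0.97). For Spred2 they were Arl4d, Rasgrp2 and Pygm, each at 0.97. For Dusp5 they were Fosl2 (0.97), Cxcl1 (0.94) and Slc38a2 (0.92). For Etv5 they were Dusp3 (0.93), Gstm1 (0.93) and Mfhas1 (0.92).

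Another of the 10 genes stood first for 1 of them: Dusp6 was most like Spry4, at an r of 0.90, followed by Mtf1 and Kctd6 at 0.87. Spry4 was most like Mtf1 (0.94), Adamts1 (0.91) and Aff4 (0.90). Spry1 was most like Slc10a6 (0.94), Ubl3 (0.90) and Tshz2 (0.86), Spred1 like Mob1b (0.93), Wapal (0.92) and Chd1 (0.92), and Dusp4 like Trp53bp2 (0.87), Zfp703 (0.86) and Rnf19b (0.85).

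The counts of the pathway lists that follow stand beside the 19% of all genes tested that were higher and the 19.3% that were lower in DKO against control, at a median of -0.03. Of 10 family relatives tested in DKO against control, 3 were higher and 3 lower. Spred3, the third Spred gene, rose by 1.93 ± 0.14 (limma adjusted p = 7.52e-09), from 183 ± 31.7 to 699 ± 127 scaled counts, so Spred2 fell, Spred3 rose and Spred1 did not pass. Dusp7, a cytoplasmic phosphatase of the Dusp6 type, fell by 0.90 ± 0.14 on the log2 scale (limma adjusted p = 4.58e-05). Dusp1, a stress-induced nuclear phosphatase, changed by -0.45 ± 0.16 and Etv1, the third factor of the PEA3 group, by -0.72 ± 0.15. Dusp2 changed by 0.48 ± 0.17 and Dusp16 by 0.30 ± 0.11, and neither was called by edgeR or by quantile or planned same-median scaling. Dusp8 and Dusp10 did not pass (0.33 ± 0.18 and 0.13 ± 0.19), and Spry3 and Dusp9 had mean levels of 1.86 and 3.69 scaled counts in control.

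Of 22 genes of the RAS-ERK cascade, 10 were higher and 3 lower in DKO against control, with a median change of 0.21. The RAS gene Nras rose by 0.64 ± 0.07 and Hras by 0.41 ± 0.13. Map2k1, which encodes MEK1, rose by 0.41 ± 0.08. Braf changed by 0.19 ± 0.10, Map2k2 by 0.06 ± 0.18 and Mapk3 by 0.16 ± 0.11, and none of these 3 passed. Hras was not called under quantile normalisation (adjusted p = 0.079).

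Of 8 brakes on RAS and RAF outside the 10 genes, 5 were higher and 1 lower. Nf1, the partner of Spred proteins, rose by 0.58 ± 0.10 (limma adjusted p = 1.67e-04), Rasa3 by 0.54 ± 0.08, Cbl by 0.40 ± 0.07, Rasa1 by 0.31 ± 0.10 and Pebp1 by 0.29 ± 0.11. Dab2ip changed by -0.61 ± 0.19, Rasa2 by 0.21 ± 0.09 and Errfi1 by 0.50 ± 0.22, the last 2 not called.

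Among 14 receptors upstream of ERK, 4 were higher and 7 lower. The angiopoietin receptor Tek fell by 0.99 ± 0.10 on the log2 scale, and the VEGF receptors Kdr and Flt1 changed by -0.54 ± 0.11 and -0.47 ± 0.10. Fgfr1 rose by 0.54 ± 0.16 and Flt4 by 0.37 ± 0.13, and the co-receptor Nrp1 changed by -0.04 ± 0.09 (limma adjusted p = 0.797). Singled out after the values had been seen, Fgfr3 fell by 3.29 ± 0.31 on the log2 scale, from 2887 ± 936 to 304 ± 153 scaled counts, and Erbb3 by 1.93 ± 0.22. Of 13 ligands, 4 were higher and 6 lower. The VEGF family ligand Pgf rose by 4.00 ± 0.23, from 502 ± 67.3 to 8656 ± 3832 scaled counts, Angpt2 by 2.15 ± 0.13 and Hbegf by 0.70 ± 0.17. Vegfc fell by 1.41 ± 0.16 and Vegfa by 0.61 ± 0.20 on the log2 scale, and Fgf2 changed by 0.04 ± 0.19 (limma adjusted p = 0.905). The ligand gene Fgf1, also singled out after its values had been seen, fell by 0.98 ± 0.11 on the log2 scale.

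Among 24 other genes known to follow ERK, 10 were higher and 6 lower. Myc rose by 2.28 ± 0.24, the urokinase receptor gene Plaur by 1.80 ± 0.27, the AP-1 gene Fosl1 by 1.12 ± 0.38 and the cyclin gene Ccnd1 by 0.43 ± 0.13. The ephrin receptor gene Epha4 fell by 1.32 ± 0.11 on the log2 scale and Ier3 changed by -0.78 ± 0.22. Phlda1, Epha2 and Egr1 did not pass, at 0.45 ± 0.23, 0.28 ± 0.19 and -0.50 ± 0.21. In K2KO 0 of these 24 were called by limma, with 9 at an unadjusted p below 0.05. Among all 23816 genes tested, an unadjusted limma p of 0.0470 (that of Dusp10) stood at rank 1476. In K2KO 22 of 24 changes were above 0, with a median of 0.36 where that of all genes tested was 0.03. The share of all genes with a change above 0 was not counted. In K4KO 0 were called and 0 had an unadjusted p below 0.05. Limma called 0 genes of the other 5 lists in either single knockout.

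The split of these lists depended on how libraries were scaled. With each library brought to the same median over all genes tested, the median change of all genes in DKO against control was 0.18 in place of -0.03. Higher genes then made up 70.4% of all calls, in place of 49.7%. Of the 22 cascade genes 16 were then higher and 0 lower, of the 8 brakes 7 and 0, of the 14 receptors 5 and 4, of the 13 ligands 5 and 5, of the 24 other genes 12 and 2, and of the 10 relatives 4 and 2. Under it Kdr, Flt1, Vegfa, Ier3, Dusp1 and Dab2ip were no longer called, with their signs kept. Of the 10 feedback genes 8 were then called, 6 higher and 2 lower, and Spred2 (-0.31) and Etv5 (-0.40) were the 2 lower genes. Klf2 in the DKO-labelled libraries was then called higher than control (0.63, limma adjusted p = 0.00677). Under quantile normalisation Flt4, Fgfr1, Hras, Rasa1 and Ccnd1 were not called, and under the planned same-median scaling Flt4, Rasa1 and Pebp1 were not. By quantile normalisation 8 cascade genes were higher and 3 lower, with 4 and 1 of the brakes and 2 and 7 of the receptors. The ligands gave 5 and 6, the other genes 9 and 8 and the relatives 1 and 3. Under the planned scaling the cascade, brakes and receptors gave 9 and 3, 3 and 1, and 3 and 7. The ligands gave 4 and 6, the other genes 10 and 8 and the relatives 1 and 3.

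**Figure D5:**
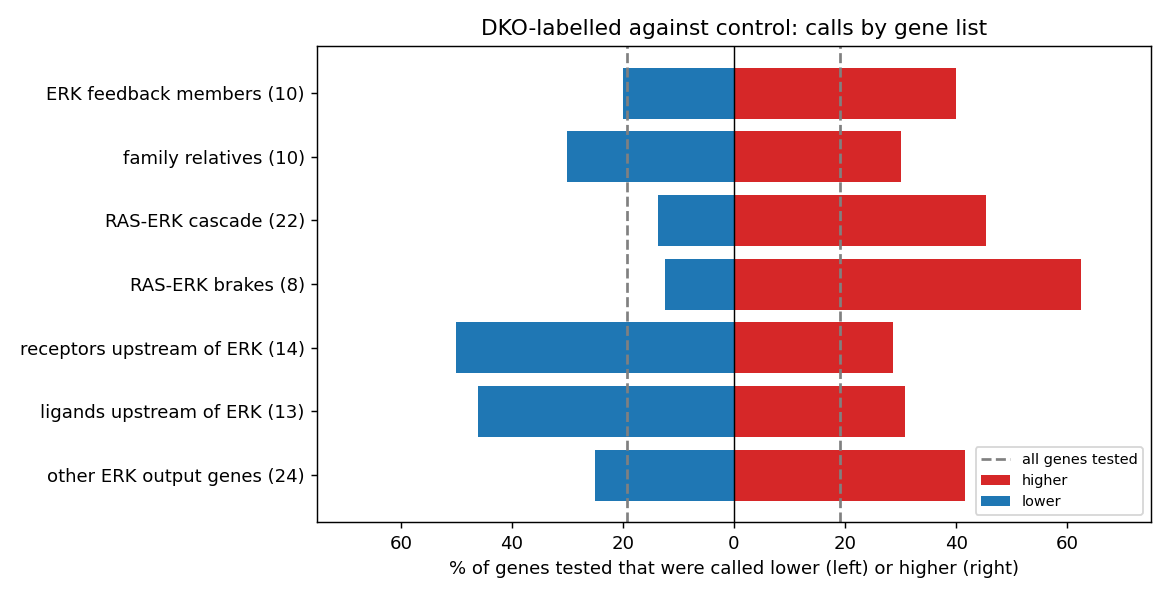
Share of each pathway list called higher (bars to the right) and lower (bars to the left) in the DKO-labelled libraries against control, with dashed lines at the 19% and 19.3% of all genes tested. Of the 10 feedback genes 4 were higher and 2 lower, and of the 22 cascade genes 10 and 3.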

How the data were processed

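Per the labels' protocols, RNA was extracted with a column kit and libraries were made with a stranded Illumina kit. The submitters' processing notes name TopHat, Cuffdiff and the build GRCm38, without versions or roles. The counting tool, annotation and use of strand were not given in the sources used here. In all, the authors deposited 1 table whose 16 library columns hold a signal, reads divided by 1 factor per library: in each, 100% of values were whole multiples of 1 step within 0.001 reads, and 1 read was worth 0.305 to 1.46 scaled counts. How the factors were set is not given. The deposited adjusted p-values, from a test the headers do not name, were used only to count calls.

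Limma 3.58.1 in R 4.3.3 (eBayes with trend) was fitted to log2(value + 1) for genes that reached a value of 1 in 4 or more libraries, with 4 group means and no covariate. The fits were tested on simulated data. Alternatives were edgeR 4.0.16 and DESeq2 1.42.0 on recovered read counts, other pseudocounts, filters and scalings, a 2-fold threshold, a replicate block and leaving out libraries. The 10 genes and all lists were chosen with earlier results of these data known, and list members to be named were fixed by name. Some genes so fixed are not reported here. Beyond these, likeness named the 3 genes of highest r, leaving out Gm and Rik models. Depth limits Etv4 most, with 14 to 647 reads a library. Replicates were separate pools of mice, and no pair agreed within sampling noise (chi-square per gene at least 10.5).

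Control and K4KO share replicate numbers in the labels. The deviations of same-numbered libraries correlated at 0.14, 0.22, 0.26 and 0.52, above 0.1 in 4 of 4. The highest correlation was with the same number for 3 of 4 control libraries, while control library 2 matched K4KO library 1 best. For the replicate block alone, the numbers were taken as pairing these libraries. That is a reading from these same data and not from the labels, and it is not met by every pair. K2KO and DKO columns run from 2 to 5 where the labels start at 1, and were used without a link to single samples. Levels per kilobase used exon lengths of GENCODE M21.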

Additional observations from a re-analysis of the deposited data

Results flagged for a closer look

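Of 48 sets of 4 libraries (10 genes, Klf2 and Klf4 in 4 groups), 1 had a library far from the other 3 relative to its range: Spry2 in control library 3, at 722 scaled counts, with a gap of 0.854 of the range. Chance flags about 1 in 20 such sets. The DKO minus control change of Spry2 was called without this library as well.

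The DKO minus K2KO difference departed from the K4KO minus control difference, by the tested interaction, for Etv4 (2.31), Spry2 (0.82) and Spred2 (-0.53), all from limma in libraries whose Klf2 and Klf4 levels were not lower than in control. With the same median over all genes tested, the interaction of Spred2 was -0.20 and was not called (limma adjusted p = 0.283).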

How the results depend on the processing

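At a threshold of 2-fold, only Etv4 was called in the 3 comparisons of the DKO-labelled libraries (1 gene in place of 6 against control, 6 against K2KO and 7 against K4KO). The share of all genes called at that threshold was not counted. Against K4KO the count was 4 under quantile normalisation and 4 without K2KO library 2 and K4KO library 1. With the same median over all genes tested, added after the data had been seen, the interaction was called for 5 genes, 5 higher and 0 lower, in place of 3, and against K4KO the calls were 7 higher and 0 lower. Leaving out 1 library at a time gave 5 to 7 called genes in DKO against control, 0 to 1 in K2KO against control, 0 in K4KO against control, 4 to 7 in DKO against K2KO, 4 to 8 in DKO against K4KO, 0 between the single knockouts and 3 to 4 for the interaction. It gave -1.17 to -0.85 for Klf2 in K2KO and -0.80 to -0.55 for Klf4 in K4KO. Klf2 in K2KO was not called by robust limma without a trend (-1.06, adjusted p = 0.0879). Klf4 in K4KO was called with the replicate block (-0.71, adjusted p = 0.0284), by edgeR without a filter (-0.74, adjusted p = 0.00344) and by DESeq2 (-0.74, adjusted p = 0.00377). The replicate block, which pairs control and K4KO libraries by number, changed no call among the 10 genes (0 called). No called value changed sign under any alternative run, and 61 of 2130 alternative values of single genes changed sign, all of them not called. The cause of these shifts was not tested. Depth limits Etv4, Dusp4 and Etv5 most.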
